A study of Mus musculus with 4 samples.

Results

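The genes described here are 10 targets of the transcription factor p53 on the cell death arm of its response: Perp, Fas, Pmaip1, Bbc3, Bax, Tnfrsf10b, Phlda3, Zmat3, Aen and Ei24. They were chosen by name, as apoptosis-linked p53 targets, and found by Ensembl identifier, with 10 of 10 present among the 19840 rows of the deposited table and 10 of 10 among its 14070 tested genes. The cells were naive mouse embryonic stem cells of the lines E14TG2a and R1, kept in the ground state in 2i/LIF medium, and the labels tie no library to a line. All were infected with plko.1 lentivirus and kept under puromycin for 2 days, and the virus coded for either the control hairpin shCtrl or one that targets Lncenc1, a long noncoding RNA (shLincenc1 in the labels). A pair of hairpins was designed per gene, and which of them a library carried is not stated, nor whether each library was a culture of its own, so p-values measure a spread that may be technical. Total RNA depleted of ribosomal RNA was sequenced in 2 libraries per group.

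The deposited table does not say which group its fold changes put first. The group with more Lncenc1 is called Lncenc1-high, with libraries H1 and H2, and the other Lncenc1-low, with libraries L1 and L2. Lncenc1 itself had 6400 and 7250 normalized reads (reads divided by the library's size factor) in H1 and H2 and 2126 and 2121 in L1 and L2, so naming the groups by it leaves no check of the labels. Reads per library, recovered from the deposited means, summed to 26838703 in H1 and to between 10677914 and 11280344 in the other libraries. All 8 markers of naive stem cells were present, with Pou5f1 between 10215 and 12443 normalized reads. They were not level between the groups: their sums were 72148 and 68295 normalized reads in H1 and H2 and 61463 and 57890 in L1 and L2, and H1 and H2 each exceeded L1 and L2 for 7 of the 8, as they did for 20.6% of all tested genes with recovered reads. Their median log2 fold change, Lncenc1-high over Lncenc1-low, was 0.30 in the authors' deposited table, where DESeq2 called 0, with 2 (Nanog and Tbx3) at an unadjusted p under 0.05. Voom called 0 as well, with 3 at that level. Over all tested genes the deposited test called 1.53%, and 3.54% were at that level and higher in the Lncenc1-high group. The shift of the naive markers ran alongside the members' differences described below, and its part in them was not tested.

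p53 is a stress-activated transcription factor that is kept low by the ubiquitin ligase Mdm2 and that can either halt the cell cycle or start cell death. In the death arm its targets act at the cell surface, where Fas and Tnfrsf10b are receptors that recruit caspases through death domains, and at the mitochondrion, where the BH3-only proteins coded by Pmaip1 (Noxa) and Bbc3 (Puma) free the pore former Bax. Others act around these: Perp is a tetraspan membrane protein also needed in desmosomes, Phlda3 a pleckstrin homology protein that restrains Akt, Zmat3 an RNA-binding zinc finger protein, Aen a nuclease and Ei24 a membrane protein of the endoplasmic reticulum. Naive stem cells carry much p53 and die readily after DNA damage.

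Promoter windows of 4 members are shown because they compare members that differed between the groups with members that did not. Each runs from 250 bases before to 50 bases after the transcription start, 5′ to 3′ on the gene's strand, from RefSeq on build GRCm38.p6, while the authors' reads were placed on mm9 per the submitters' processing notes. Capitals mark the p53 half-site, a palindromic pattern searched by its full consensus, so that a match on one strand is also a match on the other.
Fas, chr19:34290409-34290708 (+): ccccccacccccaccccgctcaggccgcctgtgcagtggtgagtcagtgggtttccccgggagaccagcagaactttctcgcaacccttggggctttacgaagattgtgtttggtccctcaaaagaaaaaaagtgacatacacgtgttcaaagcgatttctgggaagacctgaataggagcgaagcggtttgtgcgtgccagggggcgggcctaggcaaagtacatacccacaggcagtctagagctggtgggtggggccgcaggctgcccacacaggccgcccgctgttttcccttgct
Phlda3, chr1:135765835-135766134 (+): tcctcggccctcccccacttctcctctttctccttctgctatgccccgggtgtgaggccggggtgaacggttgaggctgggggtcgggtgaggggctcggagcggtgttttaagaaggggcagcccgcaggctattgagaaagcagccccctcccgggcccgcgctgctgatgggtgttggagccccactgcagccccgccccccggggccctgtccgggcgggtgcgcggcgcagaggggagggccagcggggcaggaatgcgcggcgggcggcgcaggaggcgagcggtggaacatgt
Bax, chr7:45466849-45467148 (-): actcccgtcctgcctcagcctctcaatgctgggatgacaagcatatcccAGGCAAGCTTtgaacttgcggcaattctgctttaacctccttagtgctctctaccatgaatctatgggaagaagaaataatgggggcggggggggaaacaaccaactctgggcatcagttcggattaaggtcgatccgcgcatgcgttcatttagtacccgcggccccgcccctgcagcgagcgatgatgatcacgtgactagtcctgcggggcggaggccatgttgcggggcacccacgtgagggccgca
Ei24, chr9:36797285-36797584 (-): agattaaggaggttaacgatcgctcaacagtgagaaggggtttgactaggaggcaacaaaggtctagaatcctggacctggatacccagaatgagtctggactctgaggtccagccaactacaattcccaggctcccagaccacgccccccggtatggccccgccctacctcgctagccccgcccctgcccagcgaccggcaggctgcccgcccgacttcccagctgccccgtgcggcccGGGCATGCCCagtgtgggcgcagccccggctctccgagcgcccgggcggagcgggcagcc
The windows of Fas and Phlda3, both higher in the Lncenc1-low group, hold no whole half-site. Those of Bax and Ei24, which did not pass the test, hold 1 each, beginning 201 bases before the start in Bax and 10 bases before it in Ei24. The Phlda3 window ends within letters that match the start of the pattern, so a half-site across its edge would not be seen. The last 20 bases lay in a GENCODE transcript of the gene in 6 of the 9 windows searched, and not in that of Phlda3. Of 9 windows of 6 members that were searched, 4 hold the half-site, among them 2 overlapping windows of Aen that share 1 copy (GGGCTTGTCC), and none of the 3 windows of Bbc3 does. Across all 32851 windows of the same length 8.36% hold a half-site. Perp, Tnfrsf10b, Pmaip1 and Zmat3 were not searched. A match describes letters and is not a binding site, and a window without one says nothing of sites elsewhere in the gene.

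At a DESeq2 adjusted p under 0.05 in the authors' deposited table, 4 of the 10 members were higher in the Lncenc1-low group, namely Perp, Fas, Pmaip1 and Phlda3, and 0 were higher in the Lncenc1-high group. Over all tested genes 1.02% (144 of 14070) were called as higher in the Lncenc1-low group and 0.505% (71) as higher in the Lncenc1-high group, or 1.53% together. At an unadjusted p under 0.05, Tnfrsf10b and Bbc3 joined them, making 6 of 10 against 5.28% of all tested genes, and 0 of 10 lay in the other direction against 3.54%. The other members, Bax, Zmat3, Aen and Ei24, lay close to equal in both groups. Since these genes were chosen with earlier results of the same data known, the counts describe them and are not independent evidence. In bulk RNA a difference in the number of cells that use a gene and in RNA per cell cannot be told apart.

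**Figure D1:**
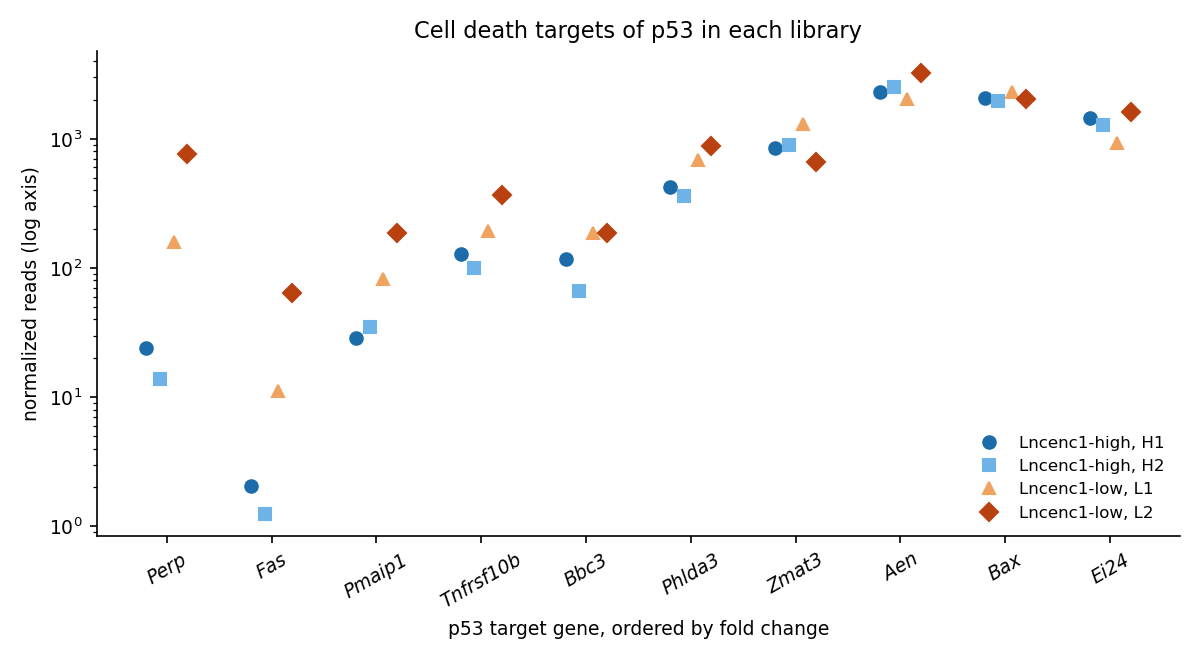
Normalized reads of each member on a log axis, with 1 point per library (blue for the 2 Lncenc1-high libraries, orange and red for the 2 Lncenc1-low ones) and genes ordered by deposited fold change. In 6 genes both low libraries lie above both high ones, and the reverse holds in 0. Over all tested genes with recovered reads these shares are 20.7% and 20.6%. In Zmat3, Aen, Bax and Ei24 the groups overlap.

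At the cell surface, Perp had the largest difference of the 10. Its Lncenc1-high libraries held 24.1 (H1) and 13.8 (H2) normalized reads, its Lncenc1-low libraries 158 (L1) and 767 (L2). Both low libraries thus lay above both high ones, the lower of them 6.54-fold above the higher of the high pair, while L2 was 4.87-fold above L1. The group means were 18.96 ± 7.30 (SD, n = 2) and 463 ± 431 (SD, n = 2), on 58 and 749 reads. On the log2 scale, Lncenc1-high over Lncenc1-low, Perp stood at -4.60 ± 1.10 (SE) in the authors' deposited table, 24.2-fold higher in the low group (DESeq2 adjusted p = 0.00532). Only 27 of the 14070 tested genes, 0.192%, had a more negative fold change.

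Fas, the death receptor for Fas ligand, was almost unread in the Lncenc1-high group, with 4 reads in H1 and 1 in H2, and had 9 in L1 and 52 in L2. Scaled, these were 2.05 and 1.25 normalized reads against 11.1 and 64.3, again with L2 far above L1. The authors' deposited table gives Fas -4.44 ± 1.27 (SE), or 21.7-fold higher in the low group (DESeq2 adjusted p = 0.037). The gene passed the table's filter on the mean, whose lowest tested value is 8.36, through its low group alone, so its presence among tested genes already depended on that difference. Tnfrsf10b, the mouse receptor for the death ligand TRAIL, was at 128 and 100.4 normalized reads in H1 and H2 and at 192 and 368 in L1 and L2. Its groups did not overlap either, but its log2 fold change of -1.29 ± 0.40 (SE) did not pass, with a DESeq2 adjusted p of 0.0768 in the authors' deposited table (95% interval from -2.08 to -0.49).

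At the mitochondrion, the gene of the BH3-only protein Noxa, Pmaip1, was higher in the Lncenc1-low group. It had 28.7 and 35.1 normalized reads in H1 and H2 and 82.6 and 185 in L1 and L2. The lower low library was 2.35-fold above the higher high library, about as far as L2 was above L1 (2.25-fold). The authors' deposited table gives Pmaip1 -2.08 ± 0.56 (SE), 4.23-fold higher in the low group (DESeq2 adjusted p = 0.0226). Bbc3, coding for Puma, differed from the other members in that its low libraries were level, at 187 and 187 normalized reads, while its high libraries were at 117 and 66.5. Its log2 fold change of -1.01 ± 0.43 (SE) did not pass, with a DESeq2 adjusted p of 0.364 in the authors' deposited table (95% interval from -1.85 to -0.17).

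Bax, the pore-forming protein on which both BH3-only proteins act, was the most abundant member per length and was nearly level. It had 2076 and 1963 normalized reads in H1 and H2 and 2300 and 2023 in L1 and L2, so the groups overlapped. The authors' deposited table gives Bax -0.10 ± 0.20 (SE), with a 95% interval from -0.48 to 0.29, which leaves out changes of 2-fold in either direction.

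Among the remaining members, Phlda3, the Akt inhibitor, was the called gene with the most reads and the least spread. It had 426 and 360 normalized reads in H1 and H2 and 686 and 884 in L1 and L2, or 393 ± 46.7 (SD, n = 2) against 785 ± 139 (SD, n = 2). The authors' deposited table gives Phlda3 -0.99 ± 0.26 (SE), 1.99-fold higher in the low group (DESeq2 adjusted p = 0.017). Its low libraries differed from each other by 1.29-fold, less than the 1.61-fold gap between the groups.

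Zmat3, Aen and Ei24 did not pass, with DESeq2 adjusted p from 0.995 to 0.999 in the authors' deposited table. Each had a low library on either side of the high pair. Zmat3 had 842 and 898 normalized reads in H1 and H2 and 1290 and 659 in L1 and L2, the reverse order of the low libraries to that seen in Perp. Aen, the nuclease, had 2301 and 2510 against 2048 and 3243, and Ei24 had 1447 and 1270 against 929 and 1603. On the log2 scale the authors' deposited table has -0.16 ± 0.30 (SE) for Zmat3, -0.14 ± 0.24 (SE) for Aen and 0.10 ± 0.27 (SE) for Ei24, with 95% intervals from -0.74 to 0.42, from -0.60 to 0.33 and from -0.42 to 0.62. In the annotation used here Ei24 shares 324 exonic bases with an antisense gene, Gm26787, whose deposited mean is 1.16 normalized reads, and Bax shares 192 with Gm45808 on its own strand. Whether the counting used strand is not stated in the labels.

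With 1 library left out, most calls were lost. A negative binomial refit on the recovered reads called 0 of the 10 without H1, 0 without H2 and 0 without L2. At an unadjusted p under 0.05, 6, 5 and 3 of them were higher in the Lncenc1-low group in these refits, against 3.9%, 3.67% and 3.04% of all genes. Without L1 it called 5, the same 4 and Tnfrsf10b. Leaving out H1, H2, L1 or L2, the refit called 0.393%, 0.556%, 1.39% or 0.342% of all genes in turn. Without H1 or H2 the fold changes stayed near those of all 4 libraries, at -5.07 and -4.26 for Perp, -4.91 and -4.20 for Fas, -1.93 and -2.22 for Pmaip1 and -1.12 and -0.88 for Phlda3. Without L2 they were smaller: Perp had -3.04 ± 1.34 (SE), Fas -2.68 ± 1.54 (SE), Pmaip1 -1.38 ± 0.69 (SE) and Phlda3 -0.80 ± 0.32 (SE), with adjusted p of 0.665, 0.9999, 0.863 and 0.55 in that refit across all genes. In these 4 genes both low libraries lay above both high ones, so their sign could not turn when 1 library was left out. Limma voom on the same reads called 0 of the 10, and 0.0427% of all genes. At an unadjusted p under 0.05 it had 6 of the 10 as higher in the Lncenc1-low group, against 5.59% of all genes. Scaling by library totals, summed over the genes with recovered reads, called the same 4 (1.69% of all genes). Adjusting the DESeq2 p over every gene of the table (0.897% called) left 3, with Fas at an adjusted p of 0.0522. Among genes with a mean of at least 50 (1.77% called), 3 of 9 members passed. Fas, with a mean of 19.7, was left out of that set before the adjustment.

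**Figure D2:**
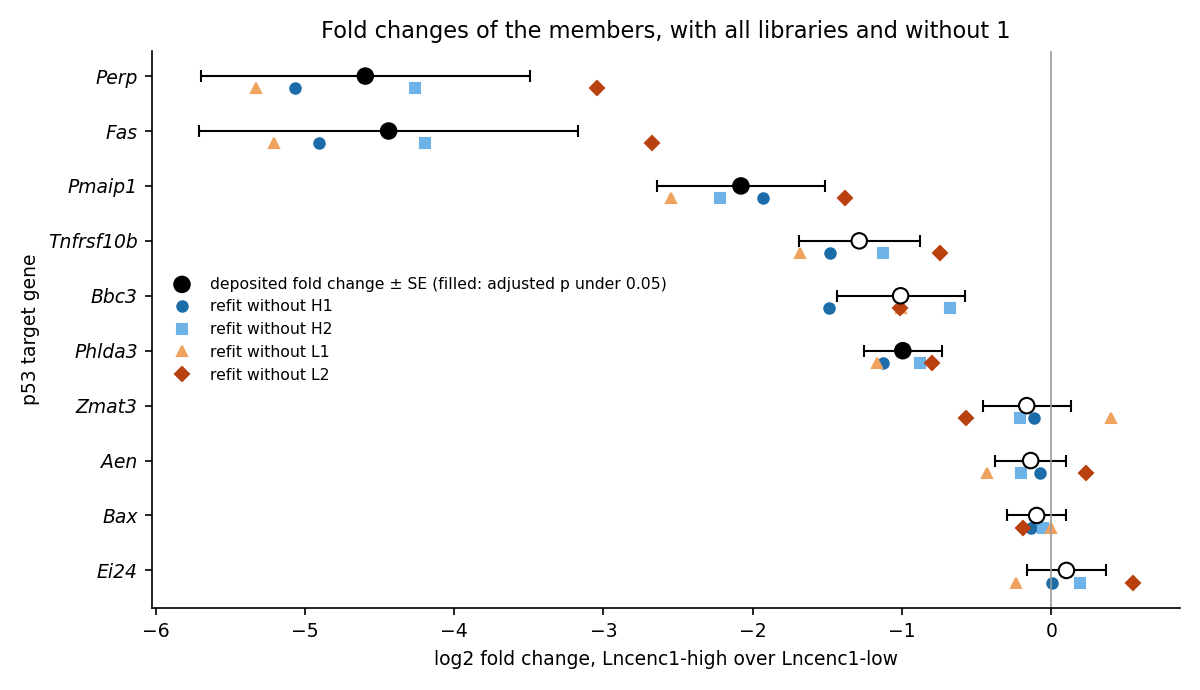
Deposited log2 fold change, Lncenc1-high over Lncenc1-low, with its standard error (black circles, filled at an adjusted p under 0.05), and below each the value of the refit without 1 library (coloured symbols). Without L2 the fold change of Perp moved from -4.60 to -3.04 and that of Fas from -4.44 to -2.68; the signs of Zmat3, Aen and Ei24 turned with single libraries.

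The libraries of the Lncenc1-low group differed from each other more than those of the Lncenc1-high group. Of the 10 members, 3 (Perp, Fas and Pmaip1) differed at least 2-fold between L1 and L2, each higher in L2, and 0 did so between H1 and H2, on the scale of log2(normalized reads + 1). Among all 14053 tested genes with recovered reads, 16.5% differed that much between L1 and L2 and 7.19% between H1 and H2. L2 was the higher library in 8.31%. The pairs also differ in depth, with H1 the deepest library, and its part in this was not tested. The log2 ratio of L2 over L1 was 2.43 in Fas and 2.28 in Perp, outside the central 95% of those genes (-1.86 to 1.85). It was 1.16 in Pmaip1, 0.93 in Tnfrsf10b, 0.79 in Ei24, 0.66 in Aen and 0.36 in Phlda3, and it was -0.01 in Bbc3, -0.18 in Bax and -0.97 in Zmat3. L2 was above L1 in 7 of the 10 members, among them every called one, against 50.3% of all tested genes. The direction and size of the difference between L1 and L2 thus varied among the members.

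**Figure D3:**
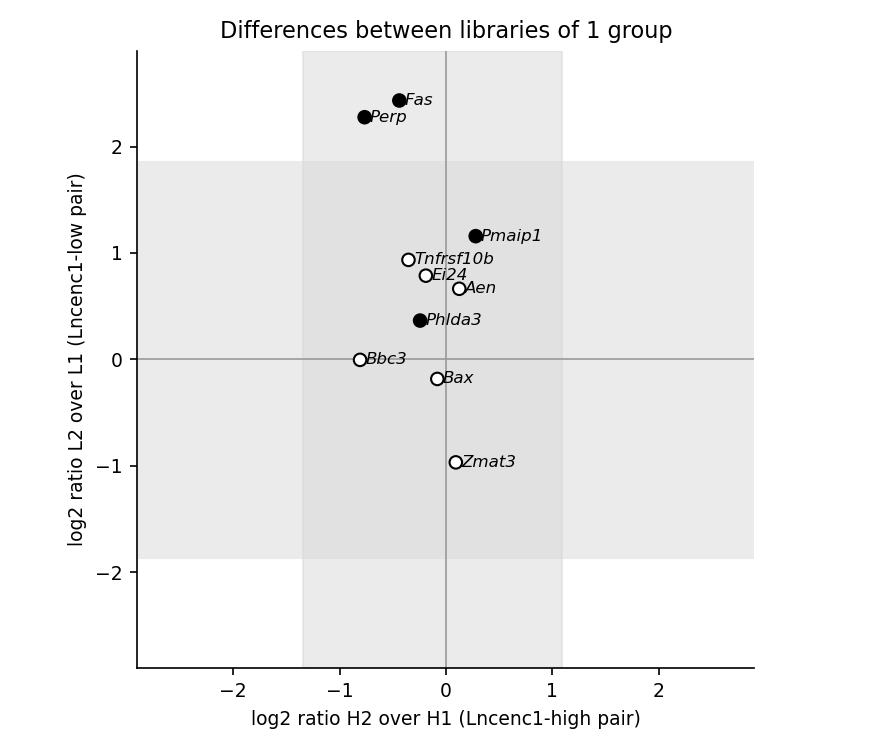
Log2 ratio of L2 over L1 against that of H2 over H1 for each member, both with 1 added to the normalized reads; filled points passed the test between groups and grey bands hold the central 95% of all tested genes with recovered reads. Perp and Fas lie above the band of the low pair at 2.28 and 2.43, and no member leaves the band of the high pair.

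Per length, the members spanned a wide range, and their order differed between the groups. In normalized reads per kilobase of merged exons the Lncenc1-high group ran from Bax at 1282 ± 50.6 (SD, n = 2) through Aen at 415, Ei24 at 279, Phlda3 at 252, Zmat3 at 76.1, Bbc3 at 43.2, Tnfrsf10b at 20.98, Pmaip1 at 11.7 and Perp at 9.72 to Fas at 0.802. In that order the libraries of neighbours overlapped for Ei24 and Phlda3 and for Pmaip1 and Perp. In the Lncenc1-low group Perp stood at rank 5, at 237 ± 221 (SD, n = 2), against rank 9 in the other, and Phlda3 at rank 2 with 504 ± 89.5 (SD, n = 2). The wide spread of the low pair left only Bax above Phlda3, and Aen above Ei24, clear of their neighbours. Fas remained the lowest, at 18.3 ± 18.2 (SD, n = 2).

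**Figure D4:**
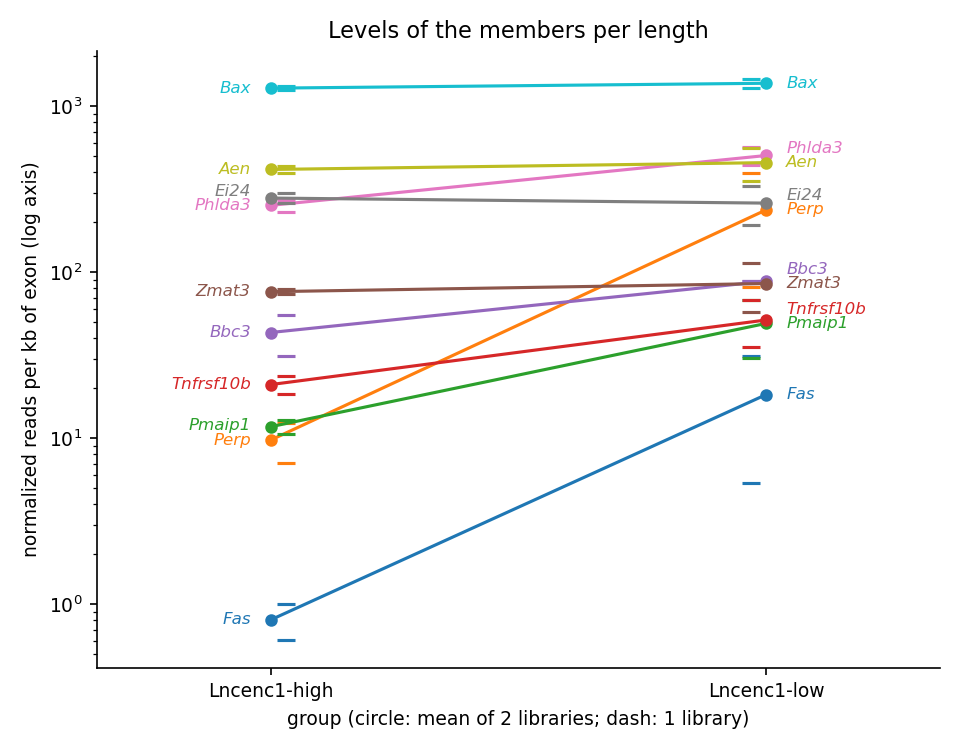
Normalized reads per kilobase of merged exons on a log axis for each member, as the mean of the 2 libraries of each group (circles joined by a line) and per library (dashes). Perp climbs from 9.72 to 237, while Bax stays near the top at 1282 and 1371.

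The list of the p53 core, its feedback and growth arrest held no called gene. Of its 28 genes 26 were tested, with 0 called by DESeq2 in the authors' deposited table and 0 by voom. At an unadjusted p under 0.05 there were 6 by either tool, those of the deposited table all higher in the Lncenc1-low group. Over all tested genes the deposited test called 1.53%. At that unadjusted level 5.28% of all genes were higher in the Lncenc1-low group in the deposited table and 5.59% by voom. Both low libraries lay above both high ones in 14 of the 26, and the reverse held in 2, against 20.7% and 20.6% of all tested genes with recovered reads. For the 10 members these counts were 6 and 0. The median log2 fold change was -0.23, against -1.002 for the members and -0.01 for all tested genes, in the authors' deposited table. Trp53 itself had 1569 and 1287 normalized reads in H1 and H2 and 1285 and 1359 in L1 and L2, with 0.11 ± 0.21 (SE). Mdm2 had 1766 and 1882 against 2535 and 3326, and its -0.68 ± 0.21 (SE) did not pass, with a DESeq2 adjusted p of 0.0654 in the authors' deposited table. With library totals as scaling the refit called it, at -0.72 ± 0.21 (SE), with an adjusted p of 0.0408 across all genes. Cdkn1a, the p21 inhibitor of cyclin-dependent kinases, had 352 and 434 normalized reads against 407 and 554, with overlapping groups and -0.29 ± 0.29 (SE).

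The largest differences in that list were those of Btg2, an antiproliferative gene, and Plk2, a polo-like kinase, at -2.09 ± 0.76 (SE) and -1.73 ± 0.67 (SE) in the authors' deposited table, neither of which passed. Btg2 had 460 and 526 normalized reads in H1 and H2 and 991 and 3195 in L1 and L2, and Plk2 had 911 and 790 against 1529 and 4109. As in Perp and Fas, L2 was the highest library in both, and without it the refit gave -1.01 ± 0.94 (SE) for Btg2 and -0.85 ± 0.82 (SE) for Plk2.

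Partners of the members in the death pathways held no called gene. Over all tested genes 1.53% were called, a share at which lists this short may hold none. At an unadjusted p under 0.05, 5.28% of all tested genes were higher in the Lncenc1-low group and 3.54% in the Lncenc1-high group in the authors' deposited table. Of 11 death receptor genes 8 were tested. Calls numbered 0 by DESeq2 in the authors' deposited table, with 1 gene under an unadjusted p of 0.05, and 0 by voom, with 0 such genes. The adaptor Fadd and the initiator caspase Casp8, through which Fas and Tnfrsf10b signal, had log2 fold changes of 0.21 ± 0.47 (SE) and 0.28 ± 0.43 (SE) in the authors' deposited table. The decoy TRAIL receptor Tnfrsf22 had -0.72 ± 0.33 (SE) there, on 2102 normalized reads in L1 and 853 to 945 in the other libraries, and Tradd had -0.33 ± 0.52 (SE). Of 22 genes of the mitochondrial pathway and caspases 21 were tested and both tools called 0, with 2 at an unadjusted p under 0.05 in the authors' deposited table and 4 by voom. The 2 were the BH3-only genes Hrk and Bmf, both higher in the Lncenc1-high group at 1.75 ± 0.81 (SE) and 0.86 ± 0.37 (SE), the opposite sign to Pmaip1 and Bbc3, and neither passed. Hrk had 49.8 and 41.4 normalized reads in H1 and H2 and 13.6 and 13.6 in L1 and L2. The pore former Bak1 had 0.29 ± 0.22 (SE), the survival genes Bcl2l1 and Mcl1 -0.02 ± 0.37 (SE) and -0.11 ± 0.22 (SE), and the apoptosome gene Apaf1 -0.43 ± 0.24 (SE) in the authors' deposited table. The list medians were -0.03 for the death receptor and -0.12 for the mitochondrial genes.

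**Figure D5:**
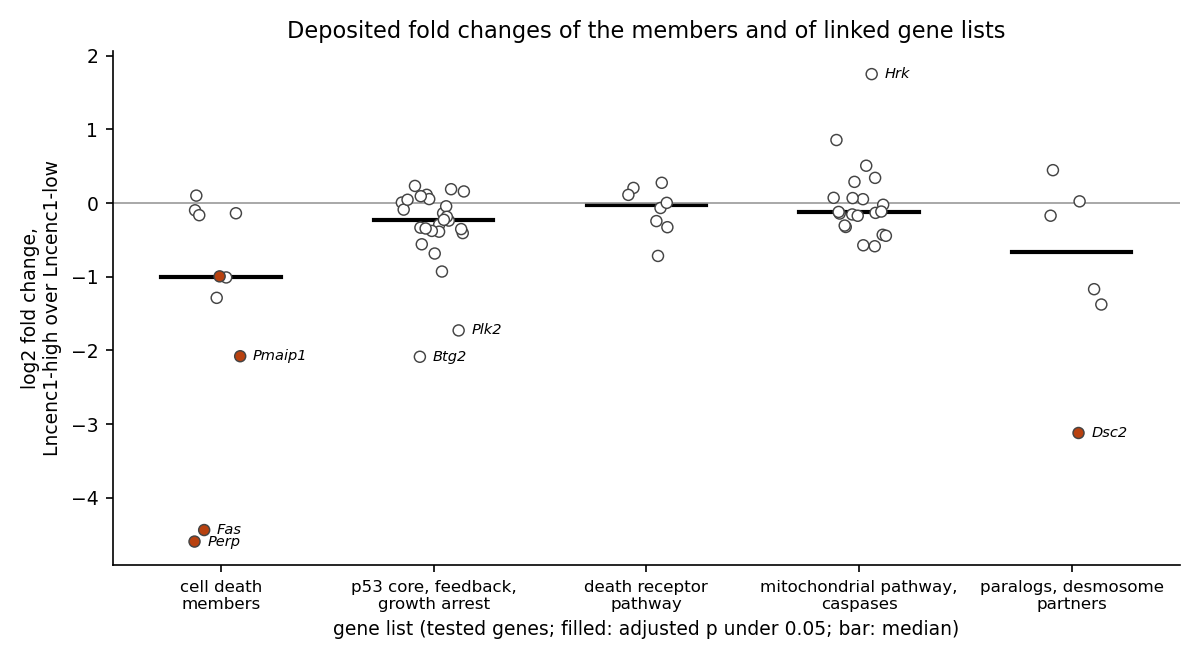
Deposited log2 fold changes, Lncenc1-high over Lncenc1-low, of the tested genes in the members' list and in 4 linked lists, with a bar at each median and filled points at an adjusted p under 0.05. The members' median is -1.002, that of the p53 core and growth arrest list -0.23, and the 2 pathway lists centre near 0.

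Perp is also a desmosome protein, and 1 of 6 tested paralogs and desmosome partners was called, where 1.53% of all tested genes were. The count was 0 without H1, without H2, without L2 and by voom, and 3 without L1. The called gene was the desmosomal cadherin Dsc2, at -3.12 ± 0.86 (SE) with a DESeq2 adjusted p of 0.0268 in the authors' deposited table, on 17.97 and 8.78 normalized reads in H1 and H2 and 18.5 and 220 in L1 and L2. The plakophilin Pkp2, at -1.38 ± 0.43 (SE), did not pass (DESeq2 adjusted p of 0.0696 in the authors' deposited table), with 184 and 290 normalized reads against 293 and 933. The deposited test had 3 of the 6 at an unadjusted p under 0.05 (Dsc2, Dsp and Pkp2), and voom 1 (Pkp2). All were higher in the Lncenc1-low group, against 5.28% and 5.59% of all genes in turn. Dsp had -1.17 ± 0.37 (SE) and did not pass, while Dsg2 and Jup had 0.02 ± 0.29 (SE) and -0.17 ± 0.19 (SE). In the refit without L2, Dsc2 had -0.43 ± 1.09 (SE) and Pkp2 -0.31 ± 0.53 (SE), both with an adjusted p of 0.9999. Without L1, Pkp2 was called, at -1.98 ± 0.52 (SE) with an adjusted p of 0.0194 across all genes in the refit.

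Lists of genes taken as markers of other cell types gave a mixed picture. Whether these genes are exclusive to those types was not tested, and Cdh1 had 4324 to 5350 normalized reads across the libraries. Of 10 epithelial markers 7 were tested, 6 of them with a negative log2 fold change, against 50.6% of all tested genes. The deposited test called 1, where it called 1.53% of all tested genes. It was Krt19, at -3.20 ± 0.87 (SE) in the authors' deposited table. At an unadjusted p under 0.05 there, 4 of the 7 were higher in the Lncenc1-low group, against 5.28% of all tested genes. Voom called 0, with 2 at that level. In 4 of the 7 both low libraries lay above both high ones, against 20.7% of all tested genes with recovered reads. Like Fas, Krt19 passed the filter on the mean through its low group alone, which held 34.5 (L1) and 79.1 (L2) normalized reads against 5.13 (H1) and 7.53 (H2). Krt7 did so too, with 23.4 (L1) and 35.8 (L2) against 4.62 (H1) and 1.25 (H2). Both genes are in the unadjusted count and in the count without overlap. These counts of 4 of the 7 thus already depended in part on that difference. Krt19 was not called by voom or without H1, H2 or L2, and was called without L1. The sum of the 8 markers with reads was 5077 to 5150 normalized reads in the high libraries and 6074 to 6803 in the low ones, most of it Cdh1. Without Cdh1 the sums were 588 and 825 in H1 and H2 and 725 and 1843 in L1 and L2, so the groups overlapped. Krt8 had 99.6 and 213 normalized reads in H1 and H2 and 72.7 and 577 in L1 and L2. The basal keratins Krt5 and Krt14 were not found by symbol in the deposited table and so have no values.

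The fibroblast markers, 6 of 10 with reads, summed to 194 to 229 normalized reads in the high libraries and 308 to 392 in the low ones, but without Fbn1 to 89.3 and 84.1 against 67.8 and 133. The trophoblast markers, 5 of 6 with reads, summed to 459 to 676 against 742 to 869, and without Tfap2c to 81.6 and 161 against 59.2 and 71.7, the opposite order of the groups. Their median log2 fold change over 3 tested genes was 0.20 in the authors' deposited table. Cdx2 had 40.04 and 87.8 normalized reads in H1 and H2 and 2.46 and 19.8 in L1 and L2, at 2.51 ± 0.90 (SE) there, and did not pass (DESeq2 adjusted p = 0.177). DESeq2 in that table called 0 in both lists, with 1 fibroblast and 2 trophoblast genes at an unadjusted p under 0.05, and voom called 0, with 1 and 1. Over all tested genes DESeq2 called 1.53%. At the unadjusted level it had 5.28% as higher in the Lncenc1-low group and 3.54% in the Lncenc1-high group. The part of cells of these other types in the members' values was not tested.

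The genes most like each called member were sought among the 11016 tested genes whose mean reached 50 normalized reads, by the Euclidean distance of centred log2(normalized reads + 1) over the 4 libraries. Nearest to Perp were Parm1, a mucin-like membrane protein, at a distance of 1.09, Cyp1a1, a cytochrome, at 1.23, and Scn3b, Anxa3 and Tap1 at 1.59 to 1.62. Nearest to Fas were Cyp1a1 at 0.681 and Parm1 at 0.698, with Perp itself at 0.80, followed by Tap1 and Mxd4. For Pmaip1 the nearest were Sgce at 0.25 and Btg2 at 0.388, then the gap junction gene Gja1, Lrrfip1 and Grip1. Phlda3 lay closest to Ttc30b at 0.0608, Apcdd1 at 0.072, Cep126, Jag2 and Tagln2. With 4 libraries such likeness is a description of levels only.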

How the data were processed

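RNA of 4 libraries, 2 per group, was compared in 1 deposited table whose rows are genes and which gives no values by library. TopHat2, HTSeq, DESeq2 1.8.2 and build mm9 are named per the submitters' processing notes, with no order or settings. Per the file headers, the authors deposited a mean normalized read count (a signal), a log2 fold change, its log2 standard error, a Wald score, a p-value and an adjusted p-value, and 14070 of 19840 genes have the latter. The main test is the authors' own, DESeq2 at an adjusted p under 0.05, with intervals at 95% from its standard error. Symbols were assigned to 19707 genes by unversioned Ensembl identifier, and exon lengths came from GENCODE M21, of another build.

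Whole reads per library were recovered as the whole-number combinations of 4 steps that give each mean to its printed digits, chosen among several by the deposited fold change and error. This gave reads for 19823 of 19840 genes (99.9%); 17 others hold 11.6% of the summed means. For 13909 of the 14048 tested genes that each group had reads for, a refit came within 0.00001 of the deposited fold change. Size factors were 1.95 (H1), 0.797 (H2), 0.811 (L1) and 0.809 (L2). A floor of 3 reads is 1.54 normalized reads in H1 and 3.70 to 3.76 in the others, for counting error only. On a simulated table of 18619 genes, 18619 were recovered rightly.

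The recovered reads gave the levels and the alternatives: negative binomial Wald fits, each gene at the dispersion implied by its deposited error, without each library or scaled by library totals, and limma 3.58.1 voom. Library totals were sums of the recovered reads. They leave out the 17 genes without recovered reads, which hold 11.6% of the summed means. Other alternatives adjusted p over all 19840 genes or over genes with a mean of at least 50. In simulated data of 14048 genes with 200 changed, the refit called 28% of 2-fold and 68% of 4-fold changes and voom 26% and 64%, with 4 and 14 unchanged genes called. These counts were drawn at the dispersions that the refit was then given, with no added difference between libraries of a group. The rates thus cannot show how either tool does where such differences exist. In the real data the deposited test called 215 genes and voom 6. The members, lists and tests were chosen with earlier results of these data known. Named companions are those called, the 2 largest fold changes per list and 9 genes of defining role.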

Additional observations from a re-analysis of the deposited data

How the results depend on the processing

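Of 10 members 4 were called in the main test, and between 0 and 5 without 1 library (0 without H1, H2 or L2). Voom called 0, with 6 at an unadjusted p under 0.05, and library totals called 4. With no filter on the mean 3 passed. Among the members with a mean of at least 50, a set without Fas, 3 of 9 passed. Over all genes 215 were called, between 48 and 194 without 1 library and 6 by voom. In the p53 core list library totals called 1, Mdm2, against 0 in the main test. Among paralogs and desmosome partners 1 was called, between 0 and 3 without 1 library, 2 with library totals and 0 by voom. Over the alternatives, 58 of 79 values for the members stayed on the same side of the threshold with the same sign, 17 lost their call, 1 gained one and 3 turned. The lost calls all belong to the 4 called members, and more of their values lost the call than kept it. Most values that stayed are of members not called in the main test. Where only the set of adjusted genes changed, the fold change is the deposited one and its sign could not turn. Without 1 library the log2 fold change ran from -0.57 to 0.40 for Zmat3 (0.40 without L1), from -0.43 to 0.23 for Aen (0.23 without L2) and from -0.24 to 0.55 for Ei24 (-0.24 without L1). It ran from -0.039 (without H1) to 0.25 for Trp53, from -0.0055 (without H1) to 0.40 for Fadd, from -0.82 to 0.43 for Tradd, from -1.23 to 0.074 (without L1) for Tnfrsf22, from -0.44 to 0.56 for Bcl2l1 (0.072 by voom) and from -0.35 to 0.16 for Mcl1. The fits without 1 library keep the dispersions of all 4 and have fewer libraries, and the cause of a lost call was not tested. Fas rests on 5 reads in the Lncenc1-high group. No paired analysis was possible because the table has no column per library and the recovered libraries carry no replicate number.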

Other observations

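Several genes of these pathways lay outside the tested set, and their reads are given without a test. Dram1, a p53 target of autophagy, had 5 and 0 reads in H1 and H2 and 15 and 6 in L1 and L2, and the tetraspanin gene Cd82 had 1 and 0 against 3 and 4. Fasl, the ligand of Fas, had 0 and 0 reads in the Lncenc1-high libraries and 3 and 2 in the Lncenc1-low ones. The decoy receptor Tnfrsf23 had 1 and 0 against 0 and 2, and the BH3-only gene Bik 10 and 4 against 0 and 6. Phlda1, a paralog of Phlda3, had 1 and 3 reads against 4 and 5. The other paralog, Phlda2, was tested and stood at 0.45 ± 0.42 (SE) on the log2 scale of the authors' deposited table, the opposite sign to Phlda3, and did not pass.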
